A study of Mus musculus with 7 samples.

Results

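The miR-99, miR-100 and miR-125 family comprised 10 mature miRNAs, chosen by name, of 1966 counted in small RNA libraries of mouse hepatocytes. They were mmu-miR-99a-5p, mmu-miR-99a-3p, mmu-miR-99b-5p, mmu-miR-99b-3p, mmu-miR-100-5p, mmu-miR-125a-5p, mmu-miR-125a-3p, mmu-miR-125b-5p, mmu-miR-125b-1-3p and mmu-miR-125b-2-3p, written below without the mouse prefix. All 10 had at least 1 read in every library. Hepatocytes, the main cells of the liver, were taken by collagenase perfusion and slow spins. WT gave 3 libraries and ALAS12-KO, labelled as a loss of both 5-aminolevulinate synthase genes, gave 4. The series asked what ALAS, the first enzyme of heme synthesis, does to small RNAs. All 7 libraries carry the treatment label TMX, WT included. The labels do not spell out TMX, and give neither ages nor the driver of gene deletion. They do not state whether each replicate was a separate animal, so p-values speak only for the spread among these libraries, part of which may be technical.

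MicroRNAs are short RNAs that guide Argonaute proteins to messenger RNAs, mostly by pairing of bases 2 to 8, the seed. miR-125 is the vertebrate relative of the worm timing miRNA lin-4, and miR-99 and miR-100 are an old animal family; mTOR is among the known targets of miR-99 and miR-100. In mammals the genes of both families lie in shared clusters with a let-7 gene. A hairpin is cut into a 5p and a 3p arm, and commonly 1 arm is kept and the other degraded.

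All 10 members had a RefSeq sequence (GRCm38.p6, which is mm10). They are printed here 5′ to 3′, grouped by arm and seed, with the seed in capitals, because the sequences show which members can share targets and which differ too little to be separated with ease.

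miR-99a-5p: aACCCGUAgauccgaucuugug
miR-100-5p: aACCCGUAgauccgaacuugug
miR-99b-5p: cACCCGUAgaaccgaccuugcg
miR-125b-5p: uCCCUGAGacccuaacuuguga
miR-125a-5p: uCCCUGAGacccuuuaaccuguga
miR-99a-3p: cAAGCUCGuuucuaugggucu
miR-99b-3p: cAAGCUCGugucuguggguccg
miR-125b-1-3p: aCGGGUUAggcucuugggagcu
miR-125b-2-3p: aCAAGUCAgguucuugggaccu
miR-125a-3p: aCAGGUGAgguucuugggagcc

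The 10 members hold 6 different seeds. miR-99a-5p, miR-99b-5p and miR-100-5p share 1 seed, and among the 1675 counted miRNAs with a sequence no other holds it. Counting from 1 at the 5′ end, miR-100-5p differs from miR-99a-5p at 1 of 22 positions (U16A), and miR-99b-5p differs from miR-99a-5p at 4 (A1C, U11A, U16C and U21C). miR-125a-5p and miR-125b-5p share their seed and their first 13 bases. miR-351-5p, miR-6367 and miR-6394 have this seed as well. The last 2 had 0 reads in every library. How reads matching several miRNAs were assigned cannot be read from the counts, so miR-99a-5p and miR-100-5p are uncertain one by one.

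The genes form 3 clusters of 3 hairpins, all on the plus strand of GRCm38 in GENCODE M21. The chromosome 16 cluster spans 47408 bases, from Mir99a (chr16:77598936-77599000) through Mirlet7c-1 to Mir125b-2 (chr16:77646273-77646343), within introns of the noncoding host gene Mir99ahg. Mir125b-2 also overlaps an exon of C130023A14Rik. The chromosome 9 cluster spans 50578 bases, from Mir100 (chr9:41531425-41531504) through Mirlet7a-2 to Mir125b-1 (chr9:41581926-41582002), within introns of the noncoding 3110039I08Rik and Gm49317. Mir100 overlaps an exon of Gm48742 on the opposite strand, and Mir125b-1 an exon of Gm28119. The chromosome 17 cluster is far tighter, at 692 bases, from Mir99b (chr17:17830188-17830257) through Mirlet7e to Mir125a (chr17:17830812-17830879), inside the protein-coding gene Spaca6. Mir99b lies in an intron of Spaca6 and Mir125a overlaps an exon. miR-125b-5p is made from both Mir125b-1 and Mir125b-2 with the same sequence, so its reads cannot be given to either locus. Only the 3p arms tell those loci apart.

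The libraries held 7719180 to 21962191 miRNA reads. Levels are miRNA counts scaled to a common library size (CPM), and 1 CPM stood for 7.72 to 22.0 reads. Reads without molecular identifiers are not independent molecules. miR-122-5p, the defining miRNA of hepatocytes, made up a WT mean of 57.9% ± 1.32 (SD, n = 3) of reads against 57.7% ± 3.58 (SD, n = 4) for ALAS12-KO. Counts of miRNAs do not measure Alas1 or Alas2, so the genotype labels were not checked. Markers of other cells were present and lowest in ALAS12-KO replicate 1. The 2 endothelial markers summed to 3.56% to 5.25% of reads in WT and 1.10% to 3.65% in ALAS12-KO. The 9 mesenchymal markers summed to 0.458% to 0.769% and 0.172% to 0.630%, and the 8 leukocyte markers to 0.818% to 1.10% and 0.300% to 0.998%. In the edgeR fit described below, 2 of 2 endothelial, 8 of 9 mesenchymal and 8 of 8 leukocyte markers had a log2 fold change below 0. Of all tested miRNAs 44.0% did. In each of these lists 0 passed the adjusted threshold and 1 was at an unadjusted p under 0.05, where 18.7% of all tested miRNAs were. For the sums of 2 rarer lists every ALAS12-KO library was below every WT library, while single markers of both lists overlapped between the genotypes. Taken singly, 15.3% of all tested miRNAs lay apart in this direction on library totals. The 5 cholangiocyte markers summed to 0.0139% to 0.0243% of reads in WT and 0.00544% to 0.0105% in ALAS12-KO. Their median log2 fold change was −1.27, but the values ran from −1.31 to −0.07, so the list was not lower throughout. Of them 0 were past the adjusted threshold, though 3 were at an unadjusted p under 0.05 (edgeR). The 4 red cell markers summed to 0.00205% to 0.00272% and 9.11e-04% to 0.00203%, with a median of −0.51, 0 past the adjusted threshold and 2 at an unadjusted p under 0.05. No marker of these 5 lists had a library at 0. Their part in the results below was not tested, and in a mixed preparation fewer cells of a type and less RNA per cell cannot be told apart.

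The summed share of the 10 members averaged 0.329% ± 0.0298 (SD, n = 3) for WT against 0.270% ± 0.0540 (SD, n = 4) for ALAS12-KO. The libraries overlapped, at 0.295% to 0.348% in WT and 0.210% to 0.321% in ALAS12-KO. The lowest share, 0.210%, was that of ALAS12-KO replicate 1. miR-125b-5p alone made up 62.8% ± 1.61 (SD, n = 3) of the family's reads for WT against 58.8% ± 11.0 (SD, n = 4) for ALAS12-KO. miR-99a-5p made up 13.0% ± 0.999 (SD, n = 3) and 21.2% ± 8.75 (SD, n = 4), and miR-125a-5p 17.2% ± 1.77 (SD, n = 3) and 13.2% ± 3.31 (SD, n = 4).

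By mean CPM over the 7 libraries miR-125b-5p ranked 36 of 1966 miRNAs, miR-99a-5p 60, miR-125a-5p 64 and miR-99b-5p 109, with miR-100-5p below it. The 3p arms ranked from 149 for miR-125b-2-3p to 431 for miR-125b-1-3p. The mature forms are 21 to 24 bases long, so these levels need no length scaling, though ligation and amplification can differ between sequences. miR-125b-5p was the highest member in every library. Below it miR-125a-5p outnumbered miR-99a-5p in all WT libraries, and the reverse held in all ALAS12-KO libraries. In ALAS12-KO replicate 2 the pair was nearly level, and this ratio, described further on, was not tested. miR-99b-5p and miR-100-5p exchanged places in ALAS12-KO replicate 3 and overlapped in their ranges in ALAS12-KO.

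**Figure D1:**
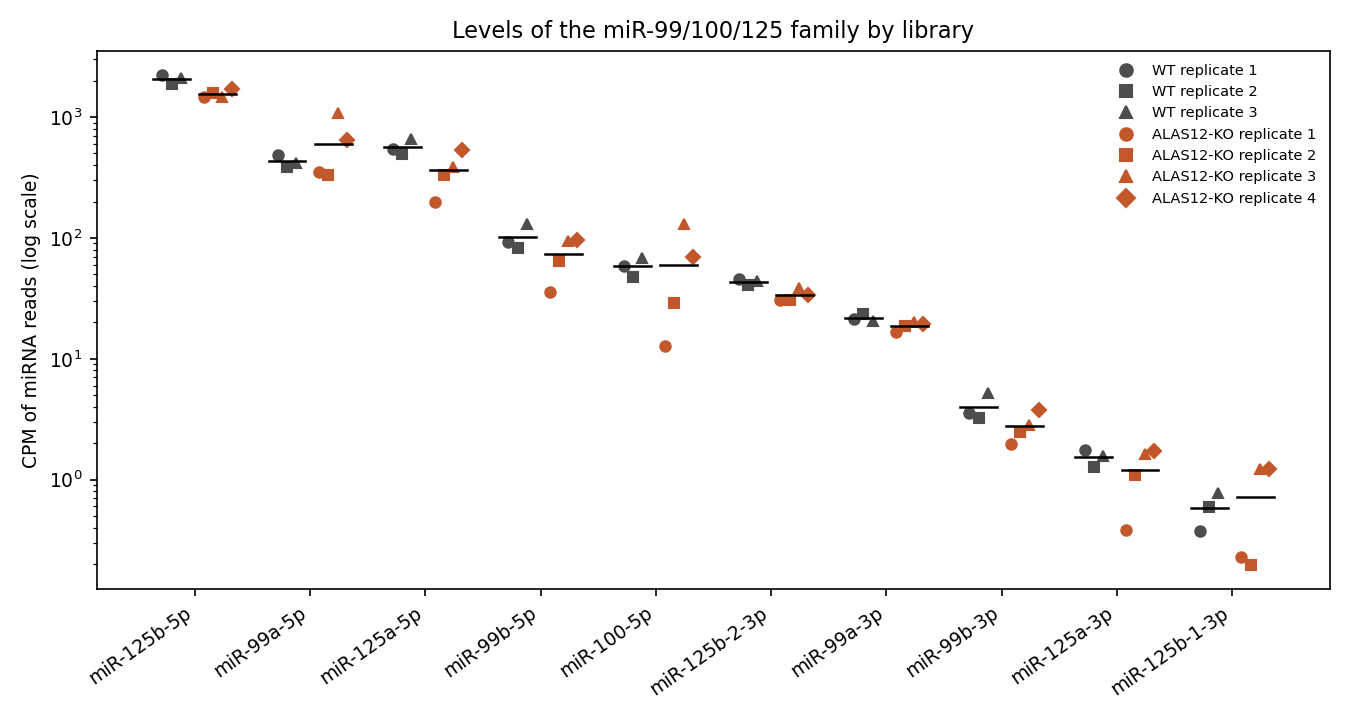
CPM of miRNA reads (log scale) for the 10 members in each of the 3 WT and 4 ALAS12-KO libraries; points are libraries and black lines group means. On these library totals miR-125b-5p, miR-125b-2-3p and, very narrowly, miR-99a-3p show ALAS12-KO points below all WT points. miR-99a-5p and miR-100-5p are spread widely over the ALAS12-KO libraries.

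Differences in abundance were tested over all 450 miRNAs past a filter on low counts with edgeR's quasi-likelihood test. All 10 members passed the filter, and none of them passed the adjusted threshold of 0.05. The background was 0% of 450 called, with 18.7% at an unadjusted p under 0.05 in either direction. Of the members 0 were at an unadjusted p under 0.05. DESeq2 called 4.67% of the 450 and 0 of the 10 members, and 1 member, miR-125b-2-3p, was at an unadjusted p under 0.05 there, where 21.6% of all were. edgeR with library totals alone called 0.444% of the 450 and 0 members, and 2 members, miR-125b-5p and miR-125b-2-3p, were lower at an unadjusted p under 0.05, where 12.4% of all were. With the main scaling (TMM) 7 of 10 members had a log2 fold change below 0, with a median of −0.19, against 44.0% of all tested miRNAs and a median of 0.06. With library totals the same 7 of 10 were below 0, with a median of −0.34, against 61.1% of all and a median of −0.12. The scaling thus moved the median of all tested miRNAs by more than 0.1, and both values are given for each member in its paragraph.

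**Figure D2:**
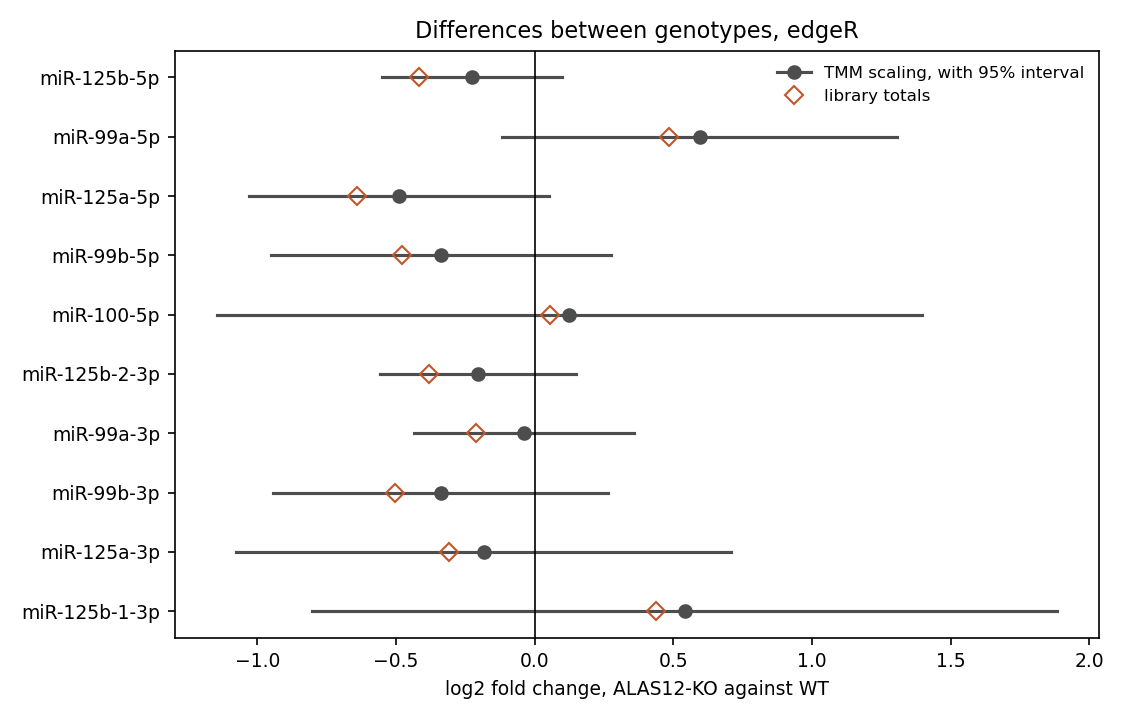
log2 fold change of ALAS12-KO against WT for the 10 members from edgeR; filled points are the TMM-scaled values with their 95% intervals and open diamonds the values with library totals. All 10 intervals include 0, and 7 of 10 points lie below 0 with either scaling.

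miR-125b-5p, the most abundant member, stood at 2218, 1875 and 2104 CPM in WT replicates 1 to 3 and at 1451, 1586, 1452 and 1693 CPM in ALAS12-KO replicates 1 to 4. Every ALAS12-KO library was below every WT library, with means of 2065 ± 175 CPM (SD, n = 3) and 1545 ± 117 CPM (SD, n = 4). The log2 fold change was −0.23 ± 0.14 (SE; 95% interval −0.55 to 0.10) with an edgeR adjusted p of 0.387 with TMM, and −0.42 with an adjusted p of 0.0827 with library totals.

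miR-125b-2-3p, the partner arm from the chromosome 16 locus, gave the same separation. It stood at 45.7, 40.8 and 44.0 CPM in WT and at 30.8, 30.4, 38.6 and 33.7 CPM in ALAS12-KO, again without overlap. Its log2 fold change was −0.20 ± 0.16 (SE) with an edgeR adjusted p of 0.470 with TMM, and −0.38 with library totals (adjusted p = 0.227). Groups lay apart in this direction for 15.3% of the 450 tested miRNAs on CPM of library totals and for 9.33% on TMM-scaled CPM. Both miR-125b-5p and miR-125b-2-3p also lay apart on TMM-scaled CPM, but narrowly. The highest ALAS12-KO and lowest WT libraries were 1804 and 1846 CPM for miR-125b-5p, and 38.2 and 39.1 CPM for miR-125b-2-3p. One more member, miR-99a-3p, was separated on library totals only, at 20.3 to 23.3 CPM in WT and 16.5 to 20.2 CPM in ALAS12-KO. Its 2 nearest libraries, 20.3 and 20.2 CPM, were almost equal, and its log2 fold change was −0.04 ± 0.17 (SE) with TMM and −0.21 with library totals.

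The other product of the miR-125b pair, miR-125b-1-3p from chromosome 9, was rare, with 2 to 21 reads per library. It stood at 0.374, 0.592 and 0.777 CPM in WT and at 0.228, 0.198, 1.23 and 1.22 CPM in ALAS12-KO. ALAS12-KO libraries 3 and 4 were above all WT libraries and libraries 1 and 2 below all of them. The log2 fold change was 0.54 ± 0.59 (SE; 95% interval −0.80 to 1.88) with TMM and 0.44 with library totals. Without WT replicate 1 it was 0.28. miR-125b-2-3p outnumbered miR-125b-1-3p in all 7 libraries, by 56.7 to 122 times in WT and by 27.6 to 154 times in ALAS12-KO.

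miR-99a-5p had the largest log2 fold change of the 10 members with TMM, though not with library totals, and it rested on 2 libraries. It stood at 489, 383 and 417 CPM in WT and at 348, 333, 1080 and 642 CPM in ALAS12-KO. On library totals ALAS12-KO replicates 3 and 4 were above all WT libraries, and replicates 1 and 2 were below all of them. With TMM replicates 1 and 2, at 432 and 379 CPM, lay within the WT range of 370 to 451 CPM. Replicates 3 and 4 stayed above it. The means on library totals were 430 ± 54.5 CPM (SD, n = 3) and 601 ± 350 CPM (SD, n = 4). The log2 fold change was 0.60 ± 0.31 (SE; 95% interval −0.12 to 1.31) with an edgeR adjusted p of 0.317 with TMM, and 0.48 with library totals. Without ALAS12-KO replicate 3 it was 0.19 (edgeR adjusted p = 0.595).

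miR-100-5p, which differs from miR-99a-5p by 1 base and comes from chromosome 9, had the widest spread. It stood at 58.2, 47.5 and 68.5 CPM in WT and at 12.8, 29.1, 130 and 69.2 CPM in ALAS12-KO. Behind these values were 169 to 2217 reads. On library totals the same 2 ALAS12-KO libraries were high and the same 2 low as for miR-99a-5p. Each lay outside the WT range of miR-100-5p, replicate 4 by less than 1 CPM. The standard deviation of log2 CPM over the 4 ALAS12-KO libraries was 1.46 for miR-100-5p and 1.32 for miR-125b-1-3p. It was 0.96 for miR-125a-3p and 0.81 for miR-99a-5p, against a median of 0.46 over the 450 tested miRNAs. These were the 9th, 17th, 46th and 88th widest of the 450. In WT the same measure was 0.26, 0.53, 0.23 and 0.18, with a median of 0.24. In ALAS12-KO miR-99b-5p (0.67) and miR-125a-5p (0.60) were also above the median, and the other members were below it. The log2 fold change of miR-100-5p was 0.12 ± 0.56 (SE; 95% interval −1.15 to 1.40), with TMM and 0.05 with library totals. It was −0.53 without ALAS12-KO replicate 3 and 0.42 without ALAS12-KO replicate 1.

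The 5p members of the chromosome 17 cluster varied together across libraries, the rare 3p arms less so. All members of this cluster were lowest in ALAS12-KO replicate 1, which was not particular to it. miR-100-5p (12.8 CPM) and miR-99a-3p (16.5 CPM) were lowest there too. So was miR-125b-5p, at 1451 CPM, though nearly level with replicate 3. miR-125a-5p, the most abundant product of the chromosome 17 cluster, stood at 545, 492 and 660 CPM in WT. In ALAS12-KO it stood at 198, 329, 387 and 538 CPM. Of the ALAS12-KO libraries only replicate 4 reached the WT range. The means were 566 ± 86.0 CPM (SD, n = 3) and 363 ± 141 CPM (SD, n = 4), and the log2 fold change was −0.49 ± 0.24 (SE; 95% interval −1.03 to 0.05) with an edgeR adjusted p of 0.283 with TMM, and −0.64 (adjusted p = 0.337) with library totals. Without ALAS12-KO replicate 4 it was −0.74.

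miR-99b-5p stood at 92.2, 82.3 and 131 CPM in WT and at 35.8, 64.9, 94.9 and 96.4 CPM in ALAS12-KO, with a log2 fold change of −0.34 ± 0.27 (SE) with TMM and −0.48 with library totals. Replicates 1 and 2 of ALAS12-KO were below the WT range and replicates 3 and 4 within it. Without ALAS12-KO replicate 1 the value was −0.18, without WT replicate 3 it was −0.17, and without ALAS12-KO replicate 4 it was −0.51. The minor arms were rare. miR-99b-3p ran from 3.23 to 5.18 CPM in WT and from 1.97 to 3.78 CPM in ALAS12-KO, with −0.34 ± 0.27 (SE) with TMM and −0.50 with library totals. Its value was −0.18 without WT replicate 3 and −0.53 without ALAS12-KO replicate 4. miR-125a-3p, with 5 to 28 reads per library, ran from 1.27 to 1.75 CPM and from 0.380 to 1.71 CPM, with −0.18 ± 0.39 (SE) with TMM and −0.31 with library totals. Its sign turned without ALAS12-KO replicate 1 (0.05), and it was −0.40 without ALAS12-KO replicate 4. ALAS12-KO replicate 1 is also the one with the lowest endothelial, mesenchymal and leukocyte markers, at 1.10%, 0.172% and 0.300% of reads. Members of the other clusters, such as miR-100-5p and miR-99a-3p, were lowest in this library as well.

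The let-7 neighbours were described beside the members, without a test of a difference between them. let-7c-5p, of the chromosome 16 cluster and also of a locus on chromosome 15, averaged 13456 ± 94.2 CPM (SD, n = 3) for WT against 12955 ± 436 CPM (SD, n = 4) for ALAS12-KO. let-7a-5p, of the chromosome 9 cluster and of another locus on chromosome 13, stood at 17485 ± 545 and 17079 ± 847 CPM. Both were thus nearly level on library totals over the ALAS12-KO libraries in which miR-99a-5p ranged from 333 to 1080 CPM. With TMM let-7c-5p ran from 11572 to 16157 CPM in ALAS12-KO and let-7a-5p from 15088 to 20757 CPM. Both were then lowest in ALAS12-KO replicate 3, where miR-99a-5p was highest. Other loci contribute to both let-7 miRNAs. let-7c-1-3p, the arm of the chromosome 16 hairpin alone, had 15 to 44 reads per library, at 2.00 to 2.12 CPM in WT and 1.14 to 2.28 CPM in ALAS12-KO. Its log2 fold change was −0.21 with TMM and −0.38 with library totals, beside −0.20 and −0.38 for miR-125b-2-3p of the same cluster. let-7e-5p, of the chromosome 17 cluster, stood at 313, 299.5 and 459 CPM in WT and at 174, 259, 340 and 415 CPM in ALAS12-KO, lowest in the same library as its neighbours. Of the 7 other miRNAs of the clusters, 5 passed the filter and 0 passed the adjusted threshold or an unadjusted p under 0.05, with log2 fold changes from −0.24 to 0.16. The values of let-7c-5p and let-7a-5p, 0.14 and 0.16 with TMM, were −0.05 and −0.03 with library totals. let-7a-2-3p and miR-100-3p, the arms left out by the filter, had 0 to 4 and 0 to 6 reads per library. let-7a-2-3p, the arm of the chromosome 9 hairpin alone, had 2, 4 and 2 reads in WT and 1, 0, 1 and 1 in ALAS12-KO, too few for a comparison at this depth. miR-351-5p, the miRNA of another locus with the miR-125 seed, had 19.2 to 29.8 CPM in WT and 5.47 to 22.6 CPM in ALAS12-KO (log2 fold change −0.44 ± 0.36, SE).

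**Figure D3:**
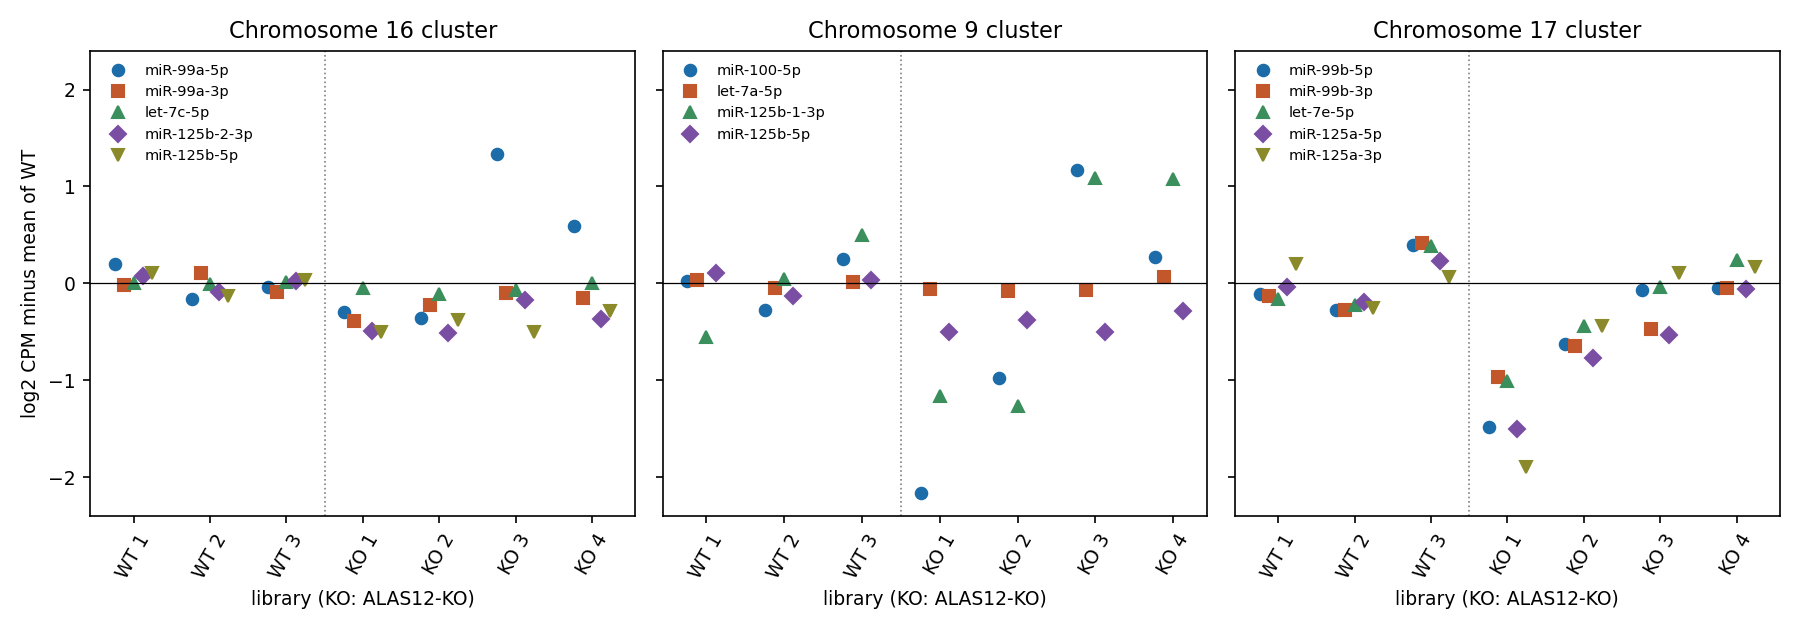
log2 CPM of each miRNA minus its mean over the 3 WT libraries, for the 3 clusters, with 1 column per library. In ALAS12-KO replicate 3, miR-99a-5p and miR-100-5p stand at 1.34 and 1.17 while miR-99a-3p and miR-125b-5p stand at −0.10 and −0.51. In the chromosome 17 panel all members are lowest in ALAS12-KO replicate 1, as are miR-99a-3p and miR-100-5p in the other panels.

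The balance of the arms is a ratio within a library and does not depend on scaling. The hairpin of Mir99a is printed with both arms in capitals, because its arms parted in 2 libraries.

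Mir99a: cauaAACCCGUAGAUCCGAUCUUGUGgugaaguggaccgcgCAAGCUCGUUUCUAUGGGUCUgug

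miR-99a-5p outnumbered miR-99a-3p by 22.9, 16.4 and 20.5 times in WT and by 21.1, 18.0, 53.4 and 33.0 times in ALAS12-KO. Replicates 1 and 2 of ALAS12-KO were within the WT range and replicates 3 and 4 above it, while miR-99a-3p itself stayed at 16.5 to 20.2 CPM in all 4. The log2 ratio of minor to major arm differed by −0.53 ± 0.38 (SE; 95% interval −1.43 to 0.36), with a limma adjusted p of 0.663 over 132 hairpins. Without ALAS12-KO replicate 3 the difference was −0.23. The test called 0% of the 132 hairpins, with 8.33% at an unadjusted p under 0.05, among which 0 of the 5 hairpins of the members.

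The ratios at Mir99b, Mir125b-2 and Mir125a varied less over the libraries, and that of the rare miR-125b-1-3p to miR-125b-5p varied more (log2 difference 0.35 ± 0.70, SE). That difference was 0.02 without WT replicate 1 and 0.76 without ALAS12-KO replicate 2. miR-99b-5p outnumbered miR-99b-3p by 25.3 to 25.9 times in WT and by 18.1 to 33.8 times in ALAS12-KO, a log2 difference of 0.02 ± 0.22 (SE). miR-125b-5p outnumbered miR-125b-2-3p by 46.0 to 48.5 times in WT and by 37.6 to 52.1 times in ALAS12-KO, a log2 difference of 0.03 ± 0.15 (SE; 95% interval −0.33 to 0.39). miR-125a-5p outnumbered miR-125a-3p most, leaving miR-125b-1-3p aside, by 312 to 425 times and by 236 to 522 times. Its log2 difference was 0.20 ± 0.26 (SE), 0.05 without ALAS12-KO replicate 3 and 0.40 without ALAS12-KO replicate 1.

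Ratios between members were computed as descriptions, without a test, since the pairs were chosen with the values known. Of 17 ratios 3 lay apart between the genotypes, in either direction. Among all 101025 pairs of the tested miRNAs 19.8% of ratios did, so this count is near the background. miR-99a-5p was below miR-125a-5p in all WT libraries, at 0.898, 0.777 and 0.632 of it, and above it in all ALAS12-KO libraries, at 1.76, 1.02, 2.79 and 1.19 times. In replicate 2 the pair was nearly level. miR-125a-5p per let-7e-5p, products of hairpins within 692 bases, was 1.44 to 1.74 in WT and 1.14 to 1.30 in ALAS12-KO. miR-125b-5p per let-7c-5p was 0.140 to 0.165 and 0.111 to 0.127. miR-99a-5p per miR-100-5p was 6.09 to 8.41 in WT and 8.33 to 27.2 in ALAS12-KO, so miR-100-5p varied more than miR-99a-5p although both were high or low in the same ALAS12-KO libraries.

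**Figure D4:**
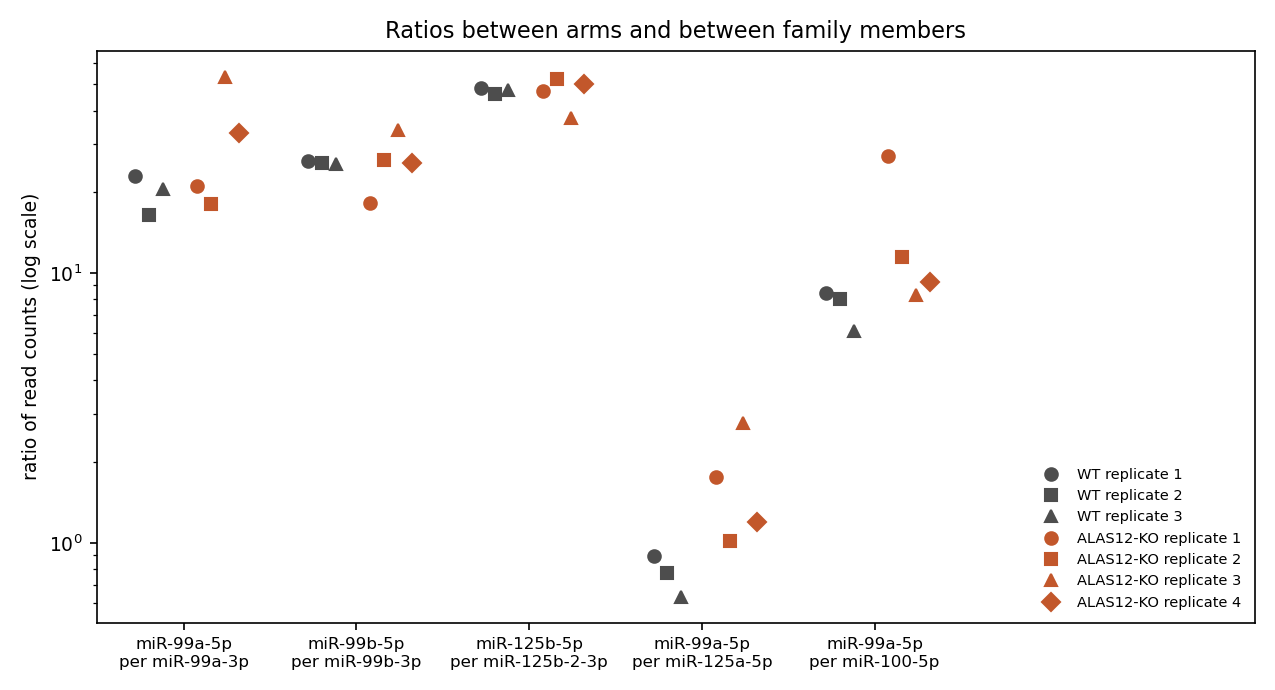
Ratios of read counts (log scale) between arms of 1 hairpin and between members, per library. miR-99a-5p per miR-99a-3p reaches 53.4 and 33.0 in ALAS12-KO replicates 3 and 4, miR-125b-5p per miR-125b-2-3p stays between 37.6 and 52.1, and miR-99a-5p per miR-125a-5p is below 1 in WT and above 1 in ALAS12-KO.

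The likeness of patterns was measured as the standard deviation of the log2 ratio between a pair of miRNAs over the 7 libraries, where a smaller value means more parallel levels. Among pairs of members the smallest values were 0.15 for miR-125b-5p with miR-125b-2-3p and 0.15 for miR-99a-3p with miR-125b-2-3p, where the chromosome 16 cluster makes each of these, miR-125b-5p together with chromosome 9. miR-99b-5p with miR-125a-5p, of the chromosome 17 cluster, had 0.19. The largest was 1.02, for miR-100-5p with miR-125b-5p, although the chromosome 9 cluster makes both, miR-125b-5p together with chromosome 16. Within the chromosome 16 cluster miR-99a-5p had 0.59 with miR-99a-3p, 0.60 with miR-125b-2-3p and 0.70 with miR-125b-5p. Pairs from a shared cluster thus stood at both ends of the range.

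Outside the family 215 miRNAs with a mean CPM of at least 10 were compared, and these libraries also share depth and makeup. miR-99a-5p was most like miR-362-3p (0.13), miR-484 (0.18) and miR-92a-3p (0.20), where the median miRNA had 0.62. miR-362-3p stood at 32.6 to 35.2 CPM in WT and at 24.2, 24.2, 88.8 and 51.3 CPM in ALAS12-KO, high and low in the same libraries as miR-99a-5p. miR-100-5p was most like miR-511-3p (0.19), miR-132-3p (0.29) and miR-322-3p (0.36), with a median of 0.98. miR-99b-5p was most like miR-10a-3p (0.16), miR-195a-5p (0.17) and miR-139-5p (0.18). miR-125a-5p was most like miR-223-3p (0.22), miR-195a-5p (0.23) and miR-155-5p (0.24). Of these, miR-223-3p and miR-155-5p are on the list of leukocyte markers. miR-125b-5p was most like miR-16-5p (0.11), miR-16-1-3p (0.13) and miR-187-3p (0.14), with a median of 0.39. miR-16-5p, at 33050 to 35204 CPM in WT and 25138 to 28468 CPM in ALAS12-KO, showed the same separation of the genotypes on library totals as miR-125b-5p. The miRNAs named here were picked for parallel levels in these same 7 libraries. Shared patterns such as those of miR-16-5p and miR-362-3p thus follow largely from the choice.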

How the data were processed

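Small RNA was sequenced from 7 hepatocyte libraries. The deposited tables hold raw read counts per mature miRNA, as the whole-number values show; the authors' use of cutadapt, limma, mm10 and hg38 is listed in the submitters' processing notes without roles, and no source used here names the aligner or counter. The 5 summary entries were dropped; reads outside any miRNA were 50.9% to 73.7% of all counted reads. Differences came from edgeR 4.0.16 (R 4.3.3; TMM, filterByExpr with a minimum count of 10, robust quasi-likelihood, Benjamini-Hochberg over 450 miRNAs, genotype only). Arm ratios used limma 3.58.1 with 0.5 added to each count over 132 hairpins, some sharing an arm. Levels are CPM of library totals. Other scalings, filters, DESeq2 1.42.0, limma-voom, a replicate block and omission of each library in turn were alternatives. The edgeR and limma fits were also run on simulated data with larger changes, which does not measure their power for the differences here. The members and lists were chosen with earlier results of these data known. Named are all members, their cluster neighbours, miRNAs with a 5p seed of a member, the 3 most parallel miRNAs per 5p member, and miR-122-5p. The hepatocyte markers summed to 63.4% to 66.2% of reads in WT and 60.7% to 69.3% in ALAS12-KO. Of these 7 markers, 0 had an edgeR log2 fold change below 0 (median 0.34), 0 passed the adjusted threshold and 1 was at an unadjusted p under 0.05.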

Additional observations from a re-analysis of the deposited data

Results flagged for a closer look

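In the ALAS12-KO group, 42 measures were examined for 1 library far from the other 3, where chance flags about 1 in 20, or 2.1. There were 2. The ratio of miR-99a-5p to miR-100-5p reached 27.2 in ALAS12-KO replicate 1, while the others had 8.33 to 11.4, a gap of 0.834 of the group's range. let-7a-5p, a cluster neighbour, stood at 18343 CPM in ALAS12-KO replicate 4, a gap of 0.887 of the range.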

How the results depend on the processing

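The replicate numbers are shared by the genotypes, but same-numbered libraries did not deviate together (correlations of −0.03, −0.47 and 0.01), and the labels do not pair them. A replicate block on the 6 libraries with shared numbers called 0 of 438 miRNAs and 0 of 127 hairpins. The count of miRNAs called was 2 with library totals, 13 without a filter, 21 with DESeq2 and 0 to 1 when leaving out each library (the 1 without ALAS12-KO replicate 2), with 0 members among them; hairpins called stayed at 0 in every alternative run. Of 144 alternative log2 fold changes of members 139 kept their sign and 0 passed the adjusted threshold (lowest adjusted p 0.0827). The block moved miR-99b-5p to −0.55, miR-99b-3p to −0.53, miR-125a-5p to −0.76, miR-125a-3p to −0.53 and miR-99a-5p to 0.40, and limma-voom moved miR-125b-1-3p to 0.26. The sign of miR-100-5p turned with limma-voom (−0.19), the replicate block (−0.47) and leaving out libraries (range −0.53 to 0.42), that of miR-99a-3p over a range of −0.13 to 0.064 (turning without WT replicate 2) and that of miR-125a-3p over −0.40 to 0.046. Among arm ratios, 2 of 44 alternatives turned sign, miR-125b-2-3p (leave-one-out range −0.070 to 0.087) and miR-99b-3p (−0.14 to 0.16). miR-125b-1-3p was left out by the filter without ALAS12-KO replicate 3 or 4 and with the block, and the minor arms under 10 CPM by the stricter filter. Of reads other than miR-122-5p the family took 0.780% in WT and 0.633% in ALAS12-KO; leaving out libraries gave 0.320% to 0.346% and 0.253% to 0.290% of all reads.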
